A study of Caenorhabditis elegans with 6 samples.

Results

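The major sperm protein (msp) genes of Caenorhabditis elegans were examined in RNA of whole worms collected at the L4 larval stage. They were taken as the rows of the deposited gene table whose name starts with msp-, which gave 30 genes of the 5792 in the table. All 30 were lower in TGQ worms than in WT worms, with a median log2 change of -1.60, and in TGQ samples their summed signal was 0.326 of that in WT samples. The fall was nearly uniform: 28 of the 30 changes lay between -1.9 and -1.4 on the log2 scale. Many of these genes are nearly identical, so reads may be divided among them and their changes may not be independent. The other listed genes of sperm in the table also fell. The medians were -1.05 for 26 sperm genes and -0.81 for 6 genes linked to storage or assembly of the protein or to the sperm cytoskeleton. Most of them fell less than the msp genes, as did nearly every gene of the table: 91.6% of the genes tested fell less than the msp median or rose.

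Major sperm protein is a small protein made in spermatocytes and found in nematode sperm. Nematode sperm crawl, and they do so without actin: filaments of major sperm protein assemble and come apart in the pseudopod to move the cell. Before the sperm is complete the protein is stored in paracrystalline fibrous bodies, and mature sperm also release it as a signal that prompts oocytes to resume meiosis and the gonadal sheath to contract. It is encoded by many nearly identical genes, and in a hermaphrodite the sperm are made around the L4 stage, before the germline turns to oocytes.

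The groups were 3 TGQ samples and 3 WT samples. TGQ is a strain name in the labels, which do not explain it; the series as a whole concerns raised mitochondrial DNA passed across generations, the mitochondrial stress response and aging. The WT samples are of strain SJ4100, known as a strain with a green fluorescent reporter of the mitochondrial chaperone gene hsp-6, and whether TGQ worms carry it is not stated in the labels. Both groups were raised at 20 °C on OP50, a laboratory strain of Escherichia coli, and polyadenylated RNA was read as pairs of 150 bases. The sex of the worms and whether replicates came from separate cultures are not stated, so the p-values below reflect the scatter of these samples, and that scatter may be technical.

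Each gene has 1 deposited signal per sample, whose unit the file does not name. The sequencing depth is unknown. Signals of all genes in the table summed to between 282762 and 293887 in TGQ samples and between 327792 and 349508 in WT samples. Every gene in the table has an adjusted p under 0.05 in the authors' own test (the largest is 0.0499), so the msp genes had been selected on these same samples, and their calls are not independent evidence of a difference. With limma on log2(signal + 1), 90.2% of the genes tested were called at an adjusted p under 0.05, and 44.6% were called lower in TGQ.

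The summed signal of the 30 msp genes was 4484, 4034.5 and 3622 in TGQ replicates 1, 2 and 3, against 13623, 12589 and 11019 in WT replicates 1, 2 and 3. The highest TGQ sum lay far below the lowest WT sum. The mean was 4047 ± 431 in TGQ and 12410.5 ± 1311 in WT (SD, n = 3 each), a log2 ratio of -1.62. The msp genes made up 1.41% ± 0.123 of the signal of the table in TGQ samples and 3.70% ± 0.293 in WT samples. In whole worms, fewer sperm-forming cells and less RNA per cell cannot be told apart.

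All 30 msp genes passed the filter on low values and were tested, and all 30 were called lower in TGQ (limma), against 44.6% of all genes. Every TGQ sample lay below every WT sample for each of the 30, as it did for 47.2% of all genes. The log2 change was -1 or lower for 29 called members, against 13.1% of all genes tested. The median change over all genes tested was -0.22. Over the members, standard errors ran from 0.09 to 0.28 and adjusted p-values from 3.74e-06 to 0.00369. In the authors' deposited table the log2 fold changes of the members ran from -2.05 to -1.01, with a median of -1.77. Of the 100 genes with the lowest p-values in the authors' deposited table, 14 were msp genes, and of the lowest 200, 27 were. The msp genes are 30 of the 5792 genes of the table. Most of them have high signals, on which such ranks may depend, and copies that share reads enter as separate genes.

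**Figure D1:**
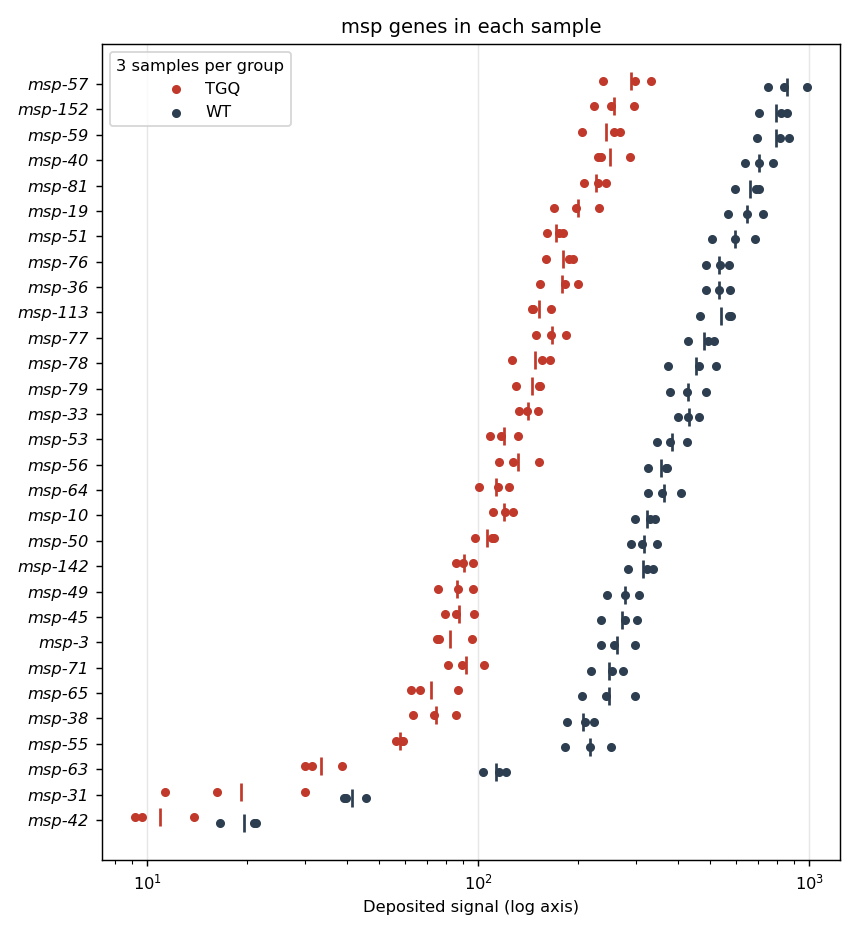
Deposited signal of each of the 30 msp genes in each sample, on a log axis, with genes in order of their mean over all samples. Points are samples (3 TGQ, red, above 3 WT, dark) and vertical ticks are group means; every red point lies to the left of every dark point of the same gene, by a similar distance for all genes but msp-42 and msp-31 at the bottom.

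Of the 30 members, 28 are annotated as protein-coding and 2, msp-71 and msp-42, as pseudogenes. The RefSeq annotation names 35 msp genes, of which 31 are coding; msp-32, msp-58 and msp-74, which are coding, and the pseudogenes msp-52 and msp-37 are not analysed here. Each of the 28 coding members is a single exon of 384 bases with no annotated untranslated region, so their levels can be compared without a correction for length. The deposited annotation gives an MSP domain to all 28. They point to 11 protein database entries: 13 genes share a single entry, 4 share another (msp-10, msp-36, msp-56 and msp-76), and the pairs msp-55 with msp-57 and msp-77 with msp-79 share an entry each. Reads from such near-identical copies could be divided among them in ways the deposited values do not show. The level and the change of a single copy are therefore uncertain, likeness of changes between copies may come in part from shared reads, and the sum is the firmer value.

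The signal of the coding members spanned 20.6-fold in WT samples. Over all 30 members, group means ran from 10.9 to 289 in TGQ (median 126) and from 19.6 to 857 in WT (median 374). The msp genes were among the more abundant transcripts of the table: 28 of them were among the 500 genes of highest WT mean, and 5 among the highest 100. The size of the change showed no clear relation to the level over the 28 coding members (Pearson r = -0.25, Spearman rho = 0.06, across genes that share sequence, given as a description).

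The highest signal of the family was that of msp-57. It stood at 332, 296 and 238 in TGQ samples and at 982, 838 and 751 in WT samples, a log2 change of -1.57 (standard error, SE, 0.14; limma adjusted p = 1.92e-05). Next was msp-152, at 294, 251 and 224 in TGQ samples and 856, 819 and 706 in WT samples (log2 change -1.63, SE 0.12). The signal of msp-59 was 267, 257 and 206 in TGQ samples, against 865, 814 and 692 in WT samples (log2 change -1.70, SE 0.12). The WT values of these 3 genes overlap one another, as do their TGQ values, so their order is not settled by the data. The signal of msp-40 was 286, 229 and 234.96 in TGQ and 775, 705 and 637 in WT (log2 change -1.5, SE 0.11). That of msp-81 was 244, 229.5 and 209 in TGQ and 689, 705 and 594 in WT (-1.54, SE 0.10). That of msp-19 was 232, 197 and 169.6 in TGQ and 723, 646 and 568 in WT (-1.69, SE 0.13). In each of these 6 genes the lowest WT sample was more than 2-fold above the highest TGQ sample.

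The largest fall was that of msp-55, which shares its protein entry with msp-57 and lies on chromosome IV at 5055631 to 5056014 (WBcel235). Its signal was 59.2, 58.7 and 56.3 in TGQ samples and 251.5, 217 and 183 in WT samples, a log2 change of -1.87 (SE 0.12). The ratio of its means, 0.267, was the lowest of the family. The next 4 falls belonged to copies that share the entry of 13 genes. The signal of msp-113 was 166, 145 and 146 in TGQ and 572, 581 and 467 in WT (log2 change -1.81, SE 0.11). That of msp-51 was 180.1, 175 and 161 in TGQ and 683, 595 and 508 in WT (-1.78, SE 0.11). That of msp-142 was 96.6, 90.1 and 85.7 in TGQ and 338, 324 and 283 in WT (-1.78, SE 0.10). Their changes differ from each other by less than their standard errors. The signal of msp-65 was 86.5, 66.8 and 62.8 in TGQ, against 296, 244 and 206 in WT (-1.77, SE 0.16). One of the 4 weakest members, msp-63, fell as much as the abundant copies: it stood at 38.8, 31.3 and 29.9 in TGQ and at 121, 115 and 103 in WT (-1.74, SE 0.12).

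The smallest fall was that of the pseudogene msp-42, the member of lowest signal. It stood at 13.9, 9.20 and 9.65 in TGQ samples and 21.1, 16.5 and 21.3 in WT samples, a log2 change of -0.81 (SE 0.17; limma adjusted p = 0.00239) and a ratio of means of 0.556. The other pseudogene, msp-71, stood at 104.3, 89.3 and 80.9 in TGQ samples, against 252, 273 and 219.5 in WT samples (-1.43, SE 0.12), a change inside the range of the coding genes. The coding gene with the smallest fall was msp-31. Relative to its mean, it had the widest spread of the family among TGQ samples, at 16.3, 11.3 and 29.99, against 45.7, 39.8 and 39.2 in WT samples (-1.18, SE 0.28, adjusted p = 0.00369, limma). Its TGQ replicate 3 was the highest of the group, while for 26 of the 30 members that replicate was the lowest. The third smallest fall was that of msp-10, level with msp-56 and msp-71 to 2 decimals, at 128, 121 and 111 in TGQ and 341, 329 and 298 in WT (-1.43, SE 0.10).

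Some members overlap other genes in the annotation, and whether the authors' counting used the strand is not stated. The gene msp-31 lies within an intron of aagr-2 on the same strand, and aagr-2, a member of the acid alpha-glucosidase related family, was higher in TGQ (107 against 64.8, log2 change 0.73, SE 0.13, adjusted p = 0.000797, limma). The part of aagr-2 reads in the values of msp-31 was not tested. The gene msp-45 lies in an intron of srb-13 on the same strand, and msp-33 in an intron of gst-9 on the opposite strand; neither host gene is analysed here. The gene msp-38 overlaps dhs-12, on the opposite strand, which had means of 32.3 in TGQ and 36.8 in WT and was not called (adjusted p = 0.122, limma). The summed ratio of 0.326 was the same without msp-31.

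To ask whether any member departed from the family, the change of each gene was measured against the per-sample median of the coding msp genes. In this comparison 94.0% of all genes tested differed from the msp median: 91.6% fell less than it or rose, and 2.45% fell more. Of the 30 members, whose own coding copies set that median, 28 were not called different. The exceptions were msp-42, which fell less (difference 0.76, SE 0.16, adjusted p = 3.67e-06, limma), and msp-55, which fell more (-0.31, SE 0.16, adjusted p = 0.0499, limma). The call of msp-55 was lost on leaving out TGQ replicate 1 or 2 or WT replicate 1 or 2, with adjusted p-values of 0.0698 to 0.15 (limma). For msp-31 the difference was 0.39 (SE 0.38, adjusted p = 0.353); it was 0.68 without TGQ replicate 2 (adjusted p = 0.000631, limma) and -0.06 without TGQ replicate 3. The spread in this fit is drawn toward that of all genes after centring, so small differences among members may have been missed.

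**Figure D2:**
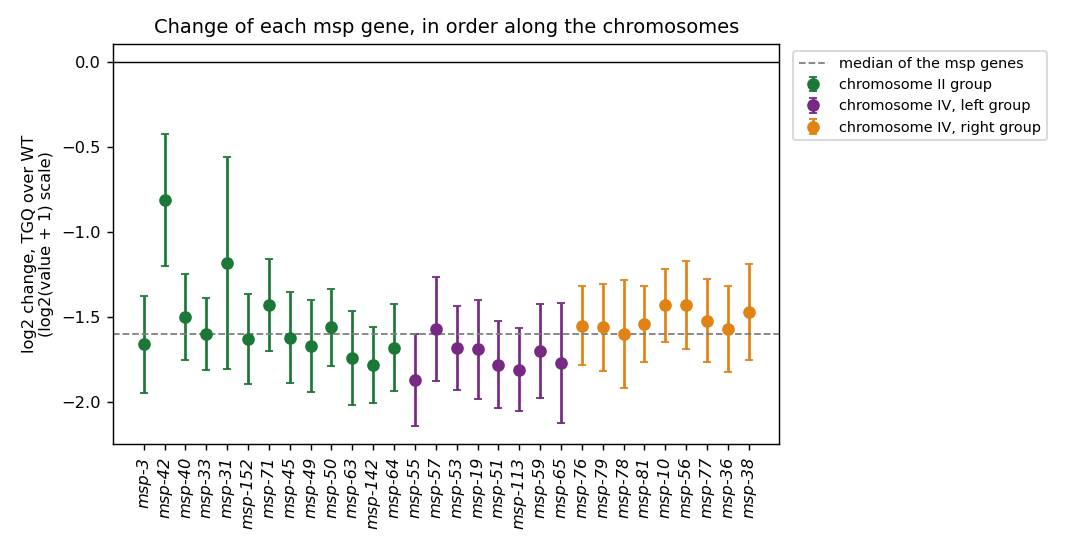
Log2 change of each msp gene, TGQ over WT, from limma on log2(signal + 1), with genes in order along chromosomes II and IV. Points are estimates, bars are 95% confidence intervals, colours are the 3 chromosomal groups, the dashed line is the median of -1.60 and the solid line marks no change; all intervals lie below 0, msp-42 stands highest at -0.81 and msp-55 lowest at -1.87.

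The share of each gene in the summed msp signal moved by small amounts, and more members stood apart by this measure than in the fit. For 8 members all TGQ shares lay below all WT shares (3.32% of all genes tested, by the same ratio to the msp sum), for 6 they lay above (87.7% of all genes tested), namely msp-10, msp-38, msp-42, msp-56, msp-71 and msp-77, and for 16 they overlapped. The share of msp-113 was 3.78% ± 0.223 in TGQ and 4.35% ± 0.231 in WT, and that of msp-10 was 2.96% ± 0.107 in TGQ and 2.61% ± 0.0992 in WT (SD, n = 3 each).

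The 30 genes lie in 3 groups on 2 chromosomes, given here in WBcel235 since no label or header names the build used by the authors. On chromosome II, 13 members lie between 4785898 and 5810330, a stretch of 1020 kb. On chromosome IV, 8 members lie between 5055631 and 5316906 (261 kb, the left group) and 9 between 9689015 and 10143740 (455 kb, the right group). The 3 groups carry near-equal shares of the msp signal.

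Every member of each group fell. The left group of chromosome IV had a median log2 change of -1.74, with a range of -1.87 to -1.57, and a summed ratio of 0.305. The right group had a median of -1.54, with a range of -1.60 to -1.43, and a summed ratio of 0.345. The chromosome II group had a median of -1.62, with a range of -1.78 to -0.81, and a summed ratio of 0.329. The ranges of the groups thus touched or overlapped, with 1 member of the left group, msp-57, inside the range of the right group.

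The left group of chromosome IV made up 32.5%, 32.5% and 31.7% of the msp signal in TGQ replicates 1, 2 and 3, against 35.2%, 34.3% and 33.8% in WT replicates 1, 2 and 3. The right group made up 33.5%, 34.6% and 33.6% in TGQ replicates, against 31.5%, 32.3% and 32.3% in WT replicates. For these 2 groups no TGQ sample overlapped the WT samples, in opposite directions. The chromosome II group made up 34%, 32.9% and 34.7% in TGQ replicates and 33.3%, 33.4% and 33.9% in WT replicates, which overlap. The shifts amount to about 2 percentage points, and they were given no test of their own, since the groups were drawn from the members' positions with their values known. Shares are parts of a whole, so a lower share of any group goes with a higher share elsewhere. Position also goes with sequence: msp-10, msp-36, msp-56 and msp-76, which share a protein entry, all lie in the right group. Most members of the left group share another entry, so position and sequence were not separated.

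**Figure D3:**
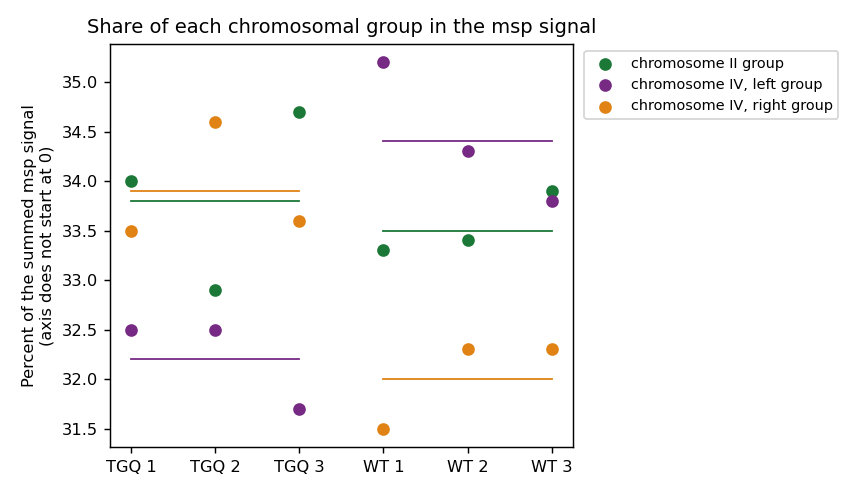
Percent of the summed msp signal carried by each chromosomal group of msp genes in the 3 TGQ samples (left) and the 3 WT samples (right); points are samples and lines are group means. The left group of chromosome IV is at 32.2% ± 0.451 in TGQ and 34.4% ± 0.738 in WT, the right group at 33.9% ± 0.595 in TGQ and 32% ± 0.463 in WT (SD, n = 3), and the vertical axis does not start at 0.

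The 3 stretches also hold other genes of the table. In the left stretch of chromosome IV, 34 of 39 other genes tested were called lower (87.2%) and 2 higher, with a median log2 change of -0.87. Those of highest mean were Y59E9AR.2 (152 in TGQ and 602 in WT, log2 change -1.99, SE 0.18), the nematode-specific sperm gene nspd-3 (-1.71, SE 0.14), ivd-1, an isovaleryl-CoA dehydrogenase gene that rose (0.51, SE 0.09), and F36H12.14 (-1.71, SE 0.12). In the right stretch 40 of 65 other genes were called lower (61.5%) and 22 higher, with a median of -0.54. In the chromosome II stretch 49 of 89 were called lower (55.1%) and 28 higher, with a median of -0.48. All 3 shares are set against 44.6% over the table. The other genes include 4 with an MSP domain in the left stretch, 5 in the right and 2 on chromosome II. They also include nspd sperm genes in each stretch, so the shares are not those of genes unrelated to sperm. Such genes are counted again in the lists below. The msp genes of each stretch fell by more than the median of their neighbours.

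Neighbouring copies lie in every orientation: 10 of the pairs of adjacent members are divergent, convergent pairs are as many, and fewer pairs point the same way. Of the divergent pairs, 6 are under 5 kb apart. The closest pair, msp-63 and msp-142, lies 478 bases apart on chromosome II, and the changes were -1.74 and -1.78. The pair msp-81 and msp-10 lies 1231 bases apart, with changes of -1.54 and -1.43, and msp-51 and msp-113 lie 2621 bases apart, with changes of -1.78 and -1.81. The pair msp-79 and msp-78 (2891 bases) had changes of -1.56 and -1.60, and msp-59 and msp-65 (3411 bases) had changes of -1.70 and -1.77. The sixth divergent pair differed more: msp-3 fell by 1.66 on the log2 scale, and its neighbour at 877 bases, the pseudogene msp-42, fell by 0.81. The closest convergent pair, msp-57 and msp-53, lies 1716 bases apart, with changes of -1.57 and -1.68.

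Other proteins carry the same domain. Besides the msp genes, the deposited annotation names an MSP domain in 56 genes of the table, all of them tested; 54 were called lower and 2 higher (background 44.6% lower and 45.6% higher), with a median log2 change of -1.09 and a range of -2.33 to 0.43. The 2 that rose, named after their values were seen, were hpo-28 (0.43) and F42G2.5 (0.38), and the count of higher calls was 1 with the authors' scaling, with quantile normalization and in 5 of the 6 fits that left out a sample. Of these genes 36 fell less than the msp median or rose (91.6% of all genes tested), 2 fell more (2.45%) and 18 were not called different from it. Most of the 56 have low signals, for which the log2(signal + 1) scale understates the change; with a pseudocount of 0.1, 32 rather than 38 differed from the msp median.

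The relatives of highest signal had changes near those of the msp genes. The sperm-specific ssp-9 averaged 150.1 ± 29.5 in TGQ and 441 ± 61.7 in WT (SD, n = 3 each; log2 change -1.56, SE 0.15). The change of msd-4, an MSP-domain gene, was -1.83 (SE 0.13), with means of 126 in TGQ and 447 in WT. Those of msd-2 and msd-1 were -1.52 and -1.42. None of these 4 was called different from the msp median, with differences of -0.26 to 0.14. Of 17 named relatives of the ssp and msd families and vpr-1, 15 were in the table, and all 15 were called lower (44.6% of all genes tested) with a median of -1.56. The ratio of the summed msp signal to the summed signal of the 56 MSP-domain genes was 2.86 ± 0.0474 in TGQ and 3.19 ± 0.0872 in WT (SD, n = 3 each).

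**Figure D4:**
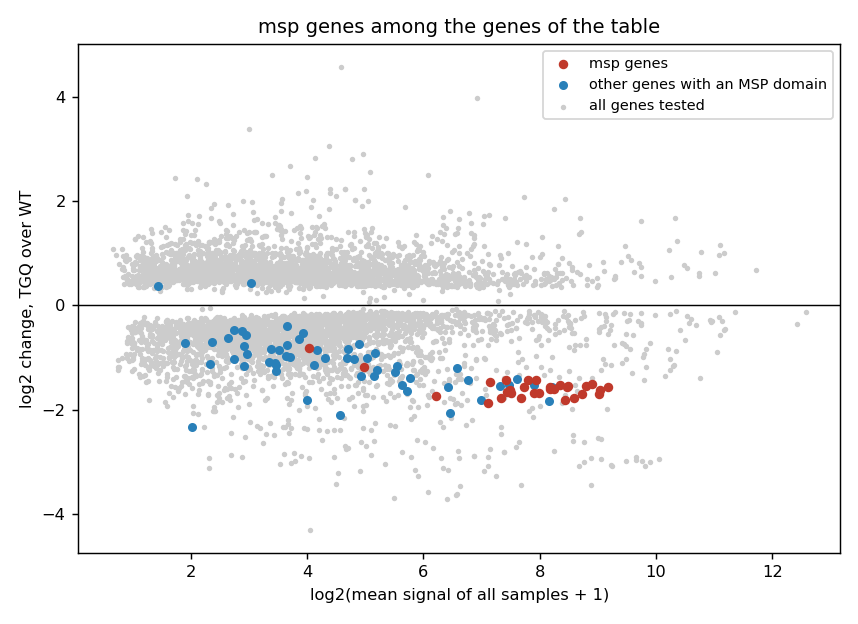
Log2 change, TGQ over WT, against the log2 of the mean signal + 1 over all samples, for all genes tested (grey), the 56 other genes with an MSP domain (blue) and the 30 msp genes (red). The msp genes form a tight band near -1.60 at the abundant end, the abundant MSP-domain genes lie in the same band, and weaker ones scatter between it and 0; the table holds few genes near 0 because the authors had selected for a difference.

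Genes linked to storage or assembly of the protein or to the sperm cytoskeleton were lower in TGQ as well. Of 11 listed genes of fibrous bodies and of the sperm cytoskeleton, 6 were in the table; all 6 were called lower (44.6% of all genes tested), with a median log2 change of -0.81 and a range of -1.12 to -0.36. All 6 fell less than the msp median, a share near the 91.6% of all genes tested that fell less or rose, so this count does not set them apart. The gene spe-18, which is needed for fibrous body assembly and is listed in the table as F32A11.3, averaged 44.2 ± 5.19 in TGQ and 88.1 ± 6.10 in WT (log2 change -0.98, SE 0.12; difference from the msp median 0.58, adjusted p = 0.000248, limma). The sperm-specific protein phosphatases gsp-3 and gsp-4, near-identical copies between which reads may be shared, both had a change of -1.12. The kinase gene spe-6, required for the protein to assemble into fibrous bodies, averaged 13 ± 1.71 in TGQ and 17.6 ± 1.03 in WT (-0.42, SE 0.13). The other members, spe-26 and spe-10, had changes of -0.64 and -0.36, at means under 10 in both groups.

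Of 44 other sperm genes, for activation, fertilization and sperm chromatin, 26 were in the table and all 26 were called lower (44.6% of all genes tested), with a median of -1.05 and a range of -1.89 to -0.34. The 4 of highest signal were all of the nspd family of small sperm proteins, and their changes were close to those of the msp genes: -1.64 for nspd-1, -1.53 for nspd-2, -1.71 for nspd-3 and -1.55 for nspd-7, with standard errors of 0.08 to 0.14. Against the msp median 17 of the 26 fell less (91.6% of all genes tested did so or rose), 8 were not called different and 1, nspd-10, fell more (-0.33, adjusted p = 0.0389, limma). The ratio of the summed msp signal to the summed signal of these sperm genes and the fibrous body genes was 2.93 ± 0.0457 in TGQ and 3.35 ± 0.104 in WT (SD, n = 3 each), and the groups did not overlap. Genes of the nspd family carry most of that sperm sum, so the ratio does not stand for the sperm genes at large.

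Genes that set germ cell sex were called in both directions. Of 17 listed regulators 7 were in the table, with 4 called lower and 3 higher, or 2 higher with the authors' scaling, shares near those of all genes tested (44.6% lower and 45.6% higher). The translational repressor gld-1, a germline RNA-binding protein, had a change of -1.0 (SE 0.14), and puf-8, of the Pumilio family, had -0.67 (SE 0.14). The gene fog-3, which directs germ cells to the sperm fate, was higher in TGQ: it stood at 12.6, 14.7 and 13.4 in TGQ samples, against 4.83, 7.66 and 6.91 in WT samples (0.98, SE 0.16, adjusted p = 0.000684, limma). The protease gene tra-3 had 0.41 (SE 0.14). The remaining regulators also went both ways. The genes fem-3 (-0.70, SE 0.15) and fog-2 (-0.50, SE 0.13) were lower in TGQ, and fog-1 (0.52, SE 0.15) was higher.

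Genes through which the protein acts as a signal were also called in both directions. Of 27 listed genes of oocyte maturation and sheath contraction, 17 were in the table; 6 were called lower, 9 higher and 2 were not called, against 44.6% lower and 45.6% higher over all genes tested. The count of higher calls was 4 with the authors' scaling and 5 on leaving out TGQ replicate 1 or 2 or WT replicate 2 or 3. The median change was 0.36. Against the msp median 16 of the 17 rose or fell less, a share near the 91.6% of all genes tested. The Eph receptor gene vab-1, which binds major sperm protein on oocytes and sheath cells, stood at 14.6, 13.97 and 12.2 in TGQ samples and at 12.1, 8.15 and 8.66 in WT samples (0.47, SE 0.16, adjusted p = 0.0199, limma). The GTPase gene ran-1 was not called (412 in TGQ and 447 in WT, log2 change -0.12, adjusted p = 0.155, limma). The protein kinase A genes kin-1 and kin-2 rose, by 0.36 and 0.44 on the log2 scale, and the CaM kinase II gene unc-43 by 0.42. The oocyte maturation factor gene oma-2 fell more than the msp median, with a change of -2.16 (SE 0.19). The other genes called lower fell less than that median: oma-1 (-1.19, SE 0.17), inx-8, inx-9, inx-14 and inx-22. Both oma genes are also counted among the oocyte genes below.

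Oocyte and yolk protein genes were lower in TGQ in the same samples, while most of the listed somatic and moulting genes present in the table were higher. Of 31 oocyte and eggshell genes tested, 30 were called lower (44.6% of all genes tested), with a median of -1.46 and a range of -2.72 to -0.20; against the msp median 10 fell less (91.6% of all genes tested did so or rose), 9 fell more (2.45%) and 12 were not called different. Their summed signal was 1244 ± 142 in TGQ and 2943 ± 354 in WT. The ratio of the msp sum to the oocyte sum was 3.26 ± 0.249 in TGQ and 4.23 ± 0.286 in WT (SD, n = 3 each). The oocyte genes of highest signal changed unequally. The change was -0.21 (SE 0.08) for cpg-9 (means 401 in TGQ and 464 in WT) and -0.86 (SE 0.09) for cpg-7 (272 and 493). It was -2.72 (SE 0.22) for perm-2 and -2.46 (SE 0.18) for perm-4. The oocyte sum depends much on cpg-9 and cpg-7, which fell less than the msp median, so the ratio does not stand for the oocyte genes at large. All 6 yolk protein genes, expressed in the intestine of hermaphrodites, fell more than the msp median (2.45% of all genes tested), with a median of -2.58, although the count that differed was 5 on leaving out TGQ replicate 2 or 3 or WT replicate 1 or 3. Those of highest mean were vit-6 (-2.55, SE 0.28), vit-2 (-2.60, SE 0.30), vit-5 (-2.62, SE 0.34) and vit-3 (-2.34, SE 0.30).

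Of 23 listed markers of muscle, hypodermis, neurons and intestine 8 were in the table, none of them an intestine marker. Of these 7 were called higher (45.6% of all genes tested) and 1, dpy-13, was not called (median 0.68). The collagen gene col-19, also planned as a hypodermis marker, was counted among the timing genes below and was called lower. After dpy-13 those of highest mean were dpy-7 (1.38, SE 0.17), myo-3 (0.66, SE 0.18) and myo-2 (0.64, SE 0.14). Dpy-13 was called lower with the authors' scaling and without WT replicate 1. Of 14 genes of larval timing and moulting, 12 were in the table and 11 were called higher (45.6% of all genes tested), with a median of 0.96. The exception was the adult cuticle collagen gene col-19, at 97.5 ± 31 in TGQ and 772 ± 110.8 in WT (-3.01, SE 0.20). After col-19 those of highest mean were lin-42 (0.51, SE 0.13), bli-1 (0.66, SE 0.17) and noah-2 (1.58, SE 0.16). None of 9 markers of male-specific neurons was in the table, so they are not analysed here. The part of germ cell number, larval stage or sex of the worms in the change of the msp genes was not tested.

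**Figure D5:**
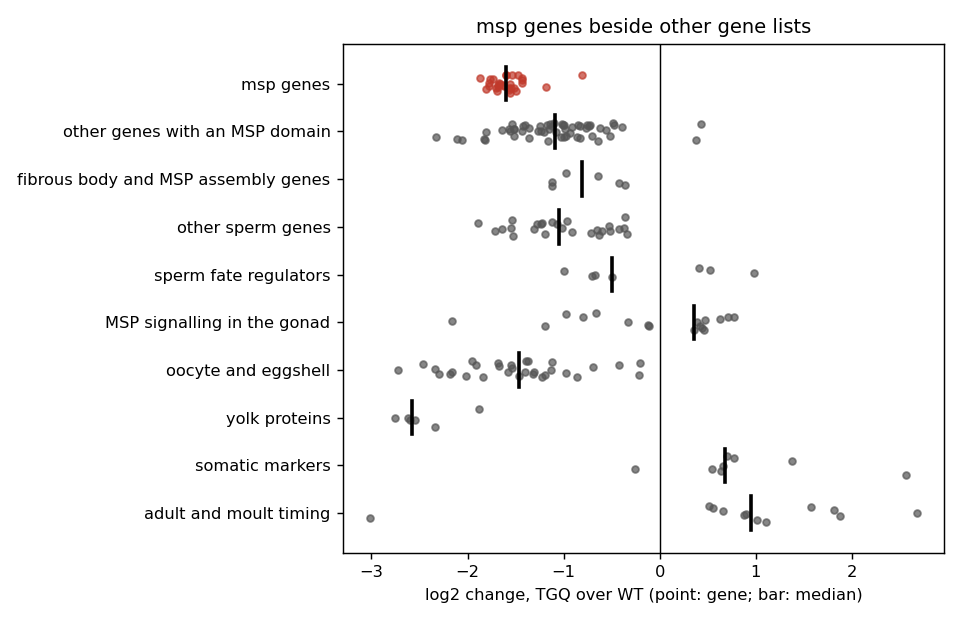
Log2 change, TGQ over WT, of the tested genes of each list; points are genes and black bars are medians. The msp genes (red, top row) sit in a narrow band around -1.60, fibrous body genes around -0.81, other sperm genes around -1.05, oocyte genes spread around -1.46, yolk protein genes lie near -2.58, and somatic and moult timing genes lie mostly above 0.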

How the data were processed

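RNA was sequenced from 3 TGQ and 3 WT samples; TopHat2, TopHat and RSEM are named, without versions, per the submitters' processing notes. No source names the genome build or annotation. The authors deposited a signal per gene and sample and its group means, with the unit not named per the file headers, and also a fold change (ratio), its log2, a p-value and an adjusted p-value. Depth is unknown, so no counting interval is given. All 6 signal columns were matched to samples by name (0 others).

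The planned design named a count test for counts and limma for any other unit. The deposited signal is no count, so log2(signal + 1) was fitted with limma 3.58.1 (R 4.3.3) for genes with a signal of at least 1 in at least 3 samples (5540 genes), on group alone, with trended and robust eBayes; p-values were adjusted by Benjamini-Hochberg over these genes. Fold changes understate the change of low genes. The fit was tested on simulated data. Members were placed by gene ID in the Ensembl WBcel235 annotation and by name in RefSeq. Named are the 6 msp genes of highest and 4 of lowest mean, the 5 largest and 3 smallest falls, and in each list the 4 genes of highest mean; others are named where a sentence singles them out after seeing values. Members and lists were chosen with earlier results of these data known. The comparisons with the msp median and the msp sum, the list of all MSP-domain genes and the sum without msp-31 were added after the data were seen. Alternatives were pseudocount 0.1, no filter, the authors' scaling, quantile normalization, a replicate block, plain eBayes and leaving out each sample.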

Additional observations from a re-analysis of the deposited data

How the results depend on the processing

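All 30 msp genes were called lower in TGQ, and none higher, under every alternative run: pseudocount 0.1, no filter, the authors' scaling, quantile normalization, the replicate block, plain eBayes and each of the 6 samples left out. The median msp change ran from -1.69 to -1.53 and the log2 ratio of the sums from -1.70 to -1.54 over the left-out samples. Quantile normalization gave -1.28 and -1.26; it also moved the median of all genes, to -0.10 against -0.22, and the authors' scaling moved that to -0.35. Relative to the median of all genes, the msp median was -1.38, -1.38 with the authors' scaling and -1.17 with quantile normalization. Genes called over the whole table numbered 4998, and 4331 to 5222 over the alternatives. Of MSP signalling genes 9 were called higher, 4 with the authors' scaling and 5 to 9 over the left-out samples. For oocyte genes quantile normalization gave 1 higher call against 0. For somatic markers the authors' scaling and the replicate block gave 1 lower call against 0, as did 1 fit without a sample (0 to 1). For other MSP-domain genes the authors' scaling and quantile normalization gave 1 higher call against 2, and the left-out samples 1 to 2. The difference of msp-31 from the msp median was 0.39, and -0.06 to 0.68 over the left-out samples. The causes of these shifts were not tested. Deviations of same-numbered samples from their group means correlated at 0.247, -0.012 and 0.16 over genes, so the numbers were not taken to pair the samples; only replicate 1 of TGQ correlated best with its own number. With the replicate block 5137 genes were called and 6 rather than 2 msp genes differed from the msp median. Pseudocount, filter, block and eBayes settings do not enter the summed signal. The unknown depth limits how precisely the weak members msp-42 and msp-31 are known.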

Other observations

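Most msp genes shared the same highest and lowest sample within each group. In both groups the summed signal of all genes in the table was also highest in replicate 1 and lowest in replicate 3. In WT, however, replicates 2 and 3 were close by that sum, at 328147 and 327792. Near-identical copies may share reads. The part of the summed signal or of shared reads in this order was not tested. Among TGQ samples, replicate 1 was the highest for 28 of the 30 members (55% of all genes tested) and replicate 3 the lowest for 26 (51%). Among WT samples, replicate 1 was the highest for 25 members (68.5% of all genes) and replicate 3 the lowest for 29 (26.4%).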
